A study of Homo sapiens with 2 samples.

Results

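The genes described here encode the subunits of the mitochondrial respiratory chain and of ATP synthase, together with the NDUFAF assembly factors of complex I. They were chosen by gene symbol alone: a probe set had to carry a single symbol that begins with NDUF, UQCR, ATP5F1, ATP5M or ATP5P, is one of SDHA to SDHD, or belongs to the COX4 to COX8 series. The rule found 89 genes among the 19775 genes with a singly named probe set. Of these, 84 are protein-coding and form the set below, and 5 are pseudogenes or antisense and divergent transcripts (ATP5MC2P1, COX6A1P1, NDUFB2-AS1, NDUFV1-DT and NDUFV2-AS1). Of the 84, 80 reached a signal of 100 or more on either array and are called measured, and COX6B2, COX7A1, COX7B2 and COX8C did not.

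Both cultures were of hTERT-RPE1, a telomerase-immortalised line from human retinal pigment epithelium, grown in serum-containing medium with hygromycin B. The miR-129-3p culture had received a miR-129-3p oligo with a lipid reagent, and the control culture a control oligo, and total RNA was taken 72 h after transfection. Each group holds 1 Affymetrix array, so no value has a replicate error, no difference was tested, and a difference compares these 2 arrays and not the conditions. Signals are the deposited linear values in arbitrary units, and a log2 difference is miR-129-3p minus control on the log2(signal + 16) scale, for the probe set of each gene with the highest mean log2 level. An array of a whole culture cannot tell a lower signal in every cell from a change in which cells were present.

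The respiratory chain passes electrons from NADH (complex I) and succinate (complex II) through coenzyme Q, complex III and cytochrome c to oxygen at complex IV, and complexes I, III and IV pump protons across the inner mitochondrial membrane. ATP synthase lets the protons flow back and uses that flow to make ATP. All subunits of complex II and most of those of the other complexes are encoded in the nucleus, while a core set of membrane subunits is encoded in mitochondrial DNA, so both genomes must be expressed together. Nuclear respiratory factor 1 (NRF1), the ETS factor GABP and YY1 are known regulators of many of the nuclear genes. The retinal pigment epithelium is known as a tissue that depends strongly on oxidative phosphorylation.

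The oligo that distinguishes the cultures carries the sequence of miR-129-3p, shown because it is the treatment. The labels do not say which of the 2 human forms was used. Both have the same seed (bases 2 to 8 from the 5′ end, in capitals), and they differ by U20C, counted from the 5′ end of the first. The sequences are from RefSeq (GRCh38.p14), the first at chr7:128207920-128207941 and the second at chr11:43581450-43581471, both on the plus strand.
hsa-miR-129-1-3p: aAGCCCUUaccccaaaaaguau
hsa-miR-129-2-3p: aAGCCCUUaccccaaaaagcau
Matches of this seed in the messenger RNAs of the genes below were not analysed here.

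The arrays were close in overall signal, with medians of 98.04 on the miR-129-3p array and 96.53 on the control array over 54613 probe sets. Of 12 markers fixed for retinal pigment epithelium, 6 were measured: OTX2 (1625 with miR-129-3p, 1452 in control), PMEL (229 and 114), MITF (1020.2 and 2470.3), KRT8 (4918 and 6138), KRT18 (2972 and 5787) and VIM (16201 and 18474). The defining markers RPE65, RLBP1, BEST1, TYR and TYRP1 were below 100 on both arrays. Of the blood, muscle and neuron markers only HBB, MYH7 and SNAP25 reached 100, at 112 to 149 with miR-129-3p and 105 to 162 in control.

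Most genes of the respiratory chain and ATP synthase had slightly lower signals on the miR-129-3p array, and few differed by much. The median log2 difference of the 80 measured genes was -0.20, a 1.15-fold lower signal, against 0.03 over all 12754 measured genes. Of the 80, 59 (73.8%) were below 0, against 47.1% of all measured genes. At a limit of 1.5-fold, 6 were lower (7.50%) and 3 higher (3.75%), against 10.8% and 17.3% of all measured genes. The split changed with the scaling: it was 4 lower and 4 higher with the difference centred on its median, 4 and 3 with a loess trend on level removed, and 6 and 2 after quantile normalization. At 2-fold, 2 were lower and 0 higher, where 4.56% and 7.83% of all measured genes passed. The differences of these genes were thus narrower than those of all genes, with quartiles of -0.33 and 0.00 against -0.25 and 0.39. Among genes that reached 1000 on either array, a limit chosen after the values were seen, the median was -0.22 for the 68 genes of the set and 0.07 for all 4776.

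**Figure D1:**
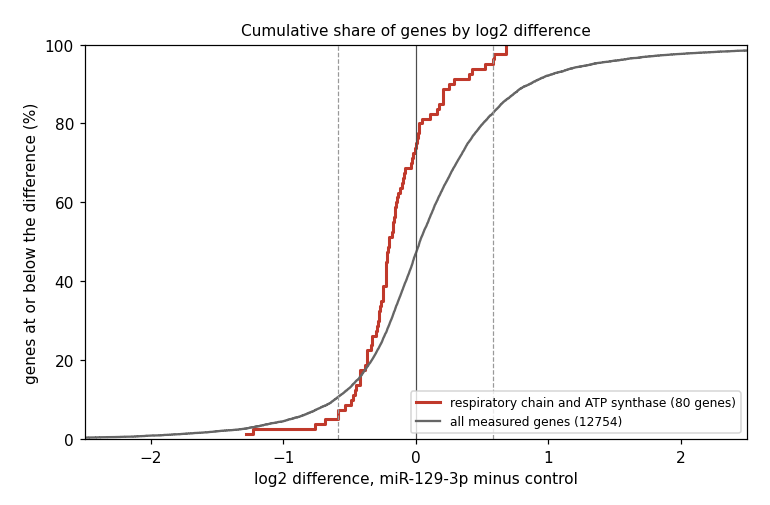
The share of genes (vertical axis, percent) at or below each log2 difference, miR-129-3p minus control (horizontal axis, outer ends not drawn), for the 80 genes of the respiratory chain and ATP synthase (red) and all 12754 measured genes (grey). The red curve lies to the left of the grey one near 0 and is steeper, with 73.8% against 47.1% below 0; dashed lines mark 1.5-fold.

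The 9 genes past 1.5-fold were NDUFAF8, ATP5MC1, NDUFA10, SDHC, ATP5MG and ATP5MJ (lower) and NDUFA9, SDHA and NDUFAF7 (higher). Several sat at the limit itself: ATP5MJ was 1.502-fold lower, ATP5MG 1.506-fold lower and NDUFAF7 1.508-fold higher, while NDUFV2, just outside, was 1.496-fold higher and ATP5F1E 1.45-fold lower. Across probe sets of the same gene, the pooled SD of the log2 differences was 0.27 in the 37 genes with at least 2 measured probe sets, a spread within these arrays that leaves out any between cultures.

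**Figure D2:**
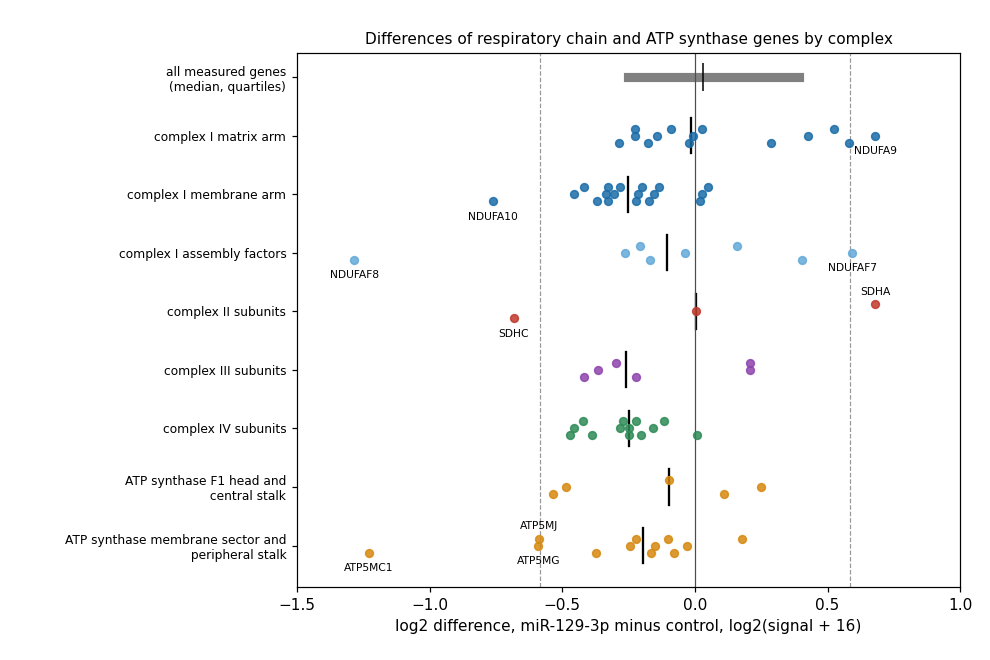
The log2 difference, miR-129-3p minus control (horizontal axis), of each measured gene (points), grouped by complex or arm, with the group median as a black bar; the grey bar gives the quartiles of all measured genes and its black mark their median of 0.03. Complex IV (92.3%), the ATP synthase membrane sector and peripheral stalk (91.7%) and the complex I membrane arm (83.3%) lie mostly below 0. The genes named on the plot are those past 1.5-fold (dashed lines). NDUFAB1, which belongs to both arms of complex I, is not drawn.

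Complex I, the NADH dehydrogenase, had 33 measured subunit genes, with a median log2 difference of -0.17. Of these, 23 were below 0 (69.7%), against 47.1% of all measured genes. Complex I has a matrix arm, which takes electrons from NADH and carries them along iron-sulfur clusters to coenzyme Q, and a membrane arm, which pumps protons. Grouped this way, a split chosen after the values were seen, the 14 matrix arm genes had a median of -0.01, and the 18 membrane arm genes one of -0.25. The 5 subunits with the highest differences, NDUFA9, NDUFV2, NDUFS3, NDUFA5 and NDUFS4, were all of the matrix arm. Below 0 were 8 of the 14 matrix arm genes (57.1%) and 15 of the 18 membrane arm genes (83.3%). The difference between the arms was not tested.

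Among the matrix arm genes, NDUFA9, an accessory subunit near the site of coenzyme Q, had a signal of 2186 with miR-129-3p and 1358 in control, a log2 difference of 0.68 on its only probe set. NDUFV2, which carries an iron-sulfur cluster beside the NADH site, read 3952 with miR-129-3p and 2637 in control (0.58). NDUFS3, a core subunit of the coenzyme Q module, read 2145 and 1486 (0.53). All of them rest on a single probe set, so no second reading stands beside these higher signals; a probe set shared by NDUFS3 and PTPMT1 read 966 with miR-129-3p and 932 in control (0.05). NDUFA5, an accessory subunit of the matrix arm, read 2009.8 and 1491 (0.43), and NDUFS4, whose loss causes a mitochondrial disease known as Leigh syndrome, read 2424 and 1983 (0.29).

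The other core subunits of the matrix arm differed little. NDUFS1, the largest iron-sulfur subunit, read 2319 with miR-129-3p and 2330.1 in control (-0.01), with its 3 measured probe sets between -0.32 and -0.01. NDUFS7, which holds the last iron-sulfur cluster before coenzyme Q, read 856 and 840 (0.03), and NDUFV1, which binds NADH, read 1551 and 1715 (-0.14). The core therefore held both near-equal and higher signals, and the lowest of the matrix arm was NDUFS6, a zinc-binding accessory subunit, at -0.29 (2871 against 3505).

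In the membrane arm, NDUFA10, a nucleoside kinase-like accessory subunit, was the lowest, at 949 with miR-129-3p and 1621 in control (-0.76). Its other 4 probe sets were below 100 on both arrays, so this value too rests on 1 reading. NDUFB3, an accessory subunit of the distal pump module, read 2486 with miR-129-3p and 3421 in control (-0.46), and NDUFA1, an accessory subunit needed to build the membrane arm, read 2797 and 3742 (-0.42). The remaining 15 genes of the arm lay between -0.37 and 0.05, with NDUFB11 (2149 and 2079), NDUFA8 (1760 and 1730) and NDUFB4 (6211 and 6136) just above 0. NDUFAB1, the mitochondrial acyl carrier protein that serves both arms and fatty acid synthesis, read 4282 and 3716 (0.20).

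The complex I assembly factors, which help to build complex I and are not part of the finished enzyme, lay on both sides of 0. NDUFAF8, a partner of NDUFAF5, had the lowest difference of all 80 genes: its signal was 1071 with miR-129-3p and 2633 in control (-1.29, 2.44-fold lower). Its second measured probe set read 107 and 134 (-0.29), so the size of this difference was not shared by both. NDUFAF5, which modifies an arginine of NDUFS7, went the other way, with 565 and 423 (0.40) on one probe set and 541 and 405 (0.41) on another. NDUFAF7, a protein arginine methyltransferase, read 811 and 533 (0.59), and 151.2 and 129.3 (0.20) on its other measured probe set. On the probe sets used, the other 5 factors lay between -0.26 (NDUFAF3) and 0.16 (NDUFAF2), and the 8 had a median of -0.10. Probe sets disagreed for NDUFAF6, at -0.21 on the one used and -0.97 (88.9 and 190) on the other. For NDUFAF4 the values were -0.04 on the one used and 0.48 (203 and 141) on the other.

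Complex II, the succinate dehydrogenase, links the tricarboxylic acid cycle to the chain, and its 3 measured genes split in 3 ways. SDHA, the flavoprotein that oxidises succinate, read 3775 with miR-129-3p and 2353 in control (0.68). SDHC, a membrane anchor that binds heme and coenzyme Q, read 1494 with miR-129-3p and 2410.1 in control (-0.68). SDHD, the other anchor, read 2917 and 2912 (0.00). The catalytic subunit was thus higher and one anchor lower by factors of 1.60 and 1.61, with the second anchor level.

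The lower signal of SDHC was seen on all 6 of its measured probe sets, from -0.996 to -0.14, of which 4 were at least 1.5-fold lower. Those 4 were all of the _x_at or _s_at class, whose probes may bind other transcripts. The measured SDHC probe sets outside these classes read -0.43 and -0.14. The higher signal of SDHA rests on 1 probe set, of the _x_at class, whose probes may bind related sequences. The human genome holds several SDHA pseudogenes, and a probe set annotated to SDHA together with SDHAP1, SDHAP2 and SDHAP4 read 387 with miR-129-3p and 429 in control (-0.14). The part of pseudogene transcripts in either reading was not tested. SDHB was not analysed here.

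Complex III, which passes electrons from coenzyme Q to cytochrome c, had 6 measured genes with a median of -0.26. Below 0 were 4 of them (66.7%), and none was past 1.5-fold. The shares of all measured genes were 47.1% below 0, 10.8% at least 1.5-fold lower and 17.3% higher. UQCRQ, a small subunit at the coenzyme Q side, read 3541 with miR-129-3p and 4741 in control (-0.42), and UQCR11 read 3349 and 4318 (-0.36). UQCRC1, a core protein on the matrix side, read 3518 and 3042 (0.21), while its partner UQCRC2 read 2666 and 3277 (-0.30). The partners thus lay on either side of 0, by less than 1.5-fold each. UQCRC2 is the only member with another measured probe set past 1.5-fold the other way: it read 308 and 191 (0.65), while the third read 1149 and 1548 (-0.42). UQCR10 read 4009 and 3474 (0.21), with its second probe set at 379 and 239.7 (0.63), and UQCRB, which binds near coenzyme Q, read 5128 and 5980 (-0.22).

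Complex IV, cytochrome c oxidase, had the most even pattern. Of 17 genes, 13 were measured and 12 of those were below 0 (92.3%), with a median of -0.25. They had a range of -0.47 to 0.01 and none was past 1.5-fold. Among all measured genes, 47.1% were below 0, 10.8% at least 1.5-fold lower and 17.3% higher. One of the 12, COX4I2, reached 100 on the control array alone, so that its sign followed from the filter; without it, 11 of 12 were below 0, with a median of -0.25. COX8A read 1870.0 with miR-129-3p and 2599 in control (-0.47), COX7C read 5243 and 6863 (-0.39), and COX5B, at the top of the range, read 3185 and 3165 (0.01). COX4I1, a regulatory subunit that binds ATP, read 4608 and 5604 (-0.28), with its 3 measured probe sets between -0.34 and -0.14. All 3 probe sets of COX7C were lower as well, between -0.67 and -0.35.

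Several complex IV subunits exist as a general form and a tissue form, and the general forms carried signal on these arrays. COX6A1, the general form, read 3973 with miR-129-3p and 4793 in control (-0.27), and COX6A2, the heart and muscle form, 183 and 220 (-0.25). COX7A2, the general form, read 4939 and 5692 (-0.20), and COX7A2L, which helps to join complexes III and IV into supercomplexes, 2983 and 4002 (-0.42). The muscle form COX7A1 stayed at 50.7 and 55.3, below the limit of 100. COX6B1 read 2109 and 2465 (-0.22), and COX7B 4411 and 4788 (-0.12). Their counterparts known from testis, COX6B2, COX7B2 and COX8C, read at most 63.3 with miR-129-3p and 67.3 in control, while COX4I2, the form known from lung and low oxygen, was just inside the limit at 82.9 and 120 (-0.45). The remaining general subunits were COX5A (3720.4 and 4153) and COX6C (4615 and 5481), at -0.16 and -0.25.

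A further subunit of complex IV, formerly named NDUFA4 and listed as COXFA4 in the annotation used, lies outside the symbol rule. It read 3165 with miR-129-3p and 5390.3 in control (-0.76), lower than any of the 13 measured complex IV genes of the set. Its relative COXFA4L2, formerly NDUFA4L2 and known as a gene induced by low oxygen, read 109 and 112 (-0.03).

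ATP synthase had 17 measured genes, with a median of -0.16, of which 14 were below 0, 3 at least 1.5-fold lower (17.6%) and 0 higher. Of all measured genes, 47.1% were below 0, 10.8% at least 1.5-fold lower and 17.3% higher. Among the 3 lower genes, ATP5MG and ATP5MJ sat at the limit itself, at 1.506-fold and 1.502-fold. In the F1 head, where ATP is made, the 2 subunits that form the catalytic ring lay on either side of 0. ATP5F1A, the alpha subunit, read 9879 with miR-129-3p and 8306 in control (0.25). ATP5F1B, the catalytic beta subunit, read 3587 with miR-129-3p and 5032 in control (-0.49). In the central stalk, ATP5F1C, the gamma subunit, read 5865 and 5434 (0.11), with its 4 probe sets between -0.06 and 0.11, ATP5F1D read 759 and 813 (-0.10), and ATP5F1E, the epsilon subunit, read 4204 and 6107 (-0.54).

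The membrane ring of ATP synthase is made of c subunits from 3 genes, which encode the same mature protein behind different import sequences, and their differences were unequal. ATP5MC1 read 814 with miR-129-3p and 1929 in control (-1.23, 2.34-fold lower). ATP5MC2 read 3782 and 4241 (-0.16), and ATP5MC3 read 5407 and 6007 (-0.15). Only ATP5MC1 was past 1.5-fold, and it was read by 1 probe set, whereas the measured probe sets of ATP5MC3 ran from -0.41 to 0.10.

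Among the small membrane subunits, ATP5MG, which takes part in dimers of the enzyme, read 3462 with miR-129-3p and 5221 in control (-0.59). Its other probe sets gave -0.59, -0.59 and -0.17, the last being the only one not of the _x_at class. ATP5MJ, a small proteolipid, read 2908 with miR-129-3p and 4377 in control (-0.59), and its second probe set was also lower, at 760 and 1309 (-0.77). ATP5ME read 3807 and 4515 (-0.24), and ATP5MK, which also supports dimers, 7924 and 8382 (-0.08). ATP5MF stood at 0.18 on its singly named probe set (131 and 114), but at -0.31 (3209 and 3982) on one it shares with ARMC2-AS1. The peripheral stalk genes ATP5PB, ATP5PD, ATP5PF and ATP5PO, which hold the head still while the ring turns, lay between -0.37 (ATP5PF) and -0.03 (ATP5PD).

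**Figure D3:**
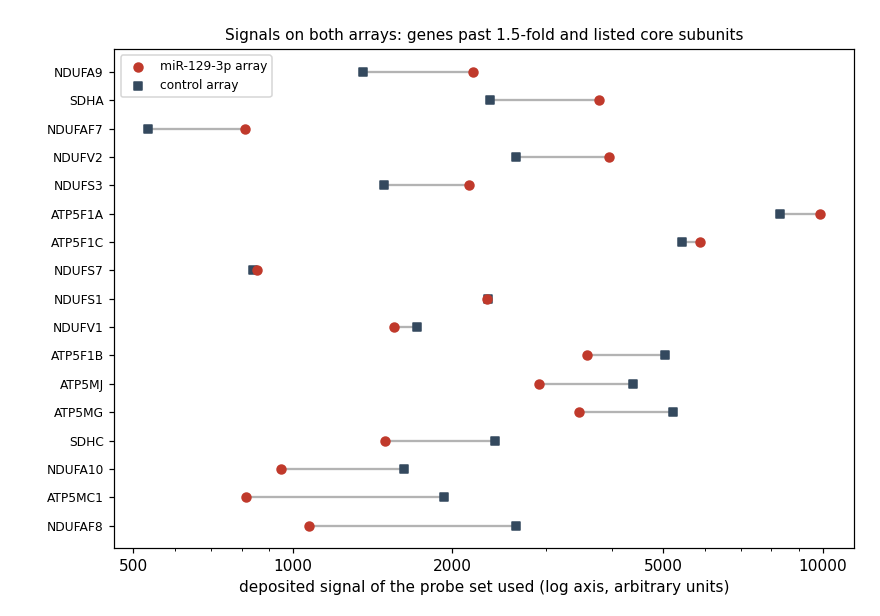
Deposited signal of the probe set used (horizontal log axis, arbitrary units) on the miR-129-3p array (red circles) and the control array (dark squares), for the 9 genes past 1.5-fold and the measured core subunits, sorted by log2 difference. Signals of different genes come from different probe sets and are not comparable with each other; within a row, NDUFA9 is highest and NDUFAF8 lowest with miR-129-3p relative to control.

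Over all their probe sets, 135 of the 164 belonging to these genes were measured, and 96 of the 135 were below 0 (71.1%), against 47.2% of all 23707 measured probe sets with 1 gene symbol. Of the 135, 14 were at least 1.5-fold lower (10.4%) and 5 at least 1.5-fold higher (3.70%), against 11.1% and 16.7% of all of them. All measured probe sets had the same sign in 22 of the 37 genes with 2 or more. Of the 80 probe sets used, 8 were of the _x_at class and 37 of the _s_at class, which can bind transcripts of more than 1 gene. Many of these genes have processed pseudogenes, and the part of such transcripts in the signals was not tested.

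**Figure D4:**
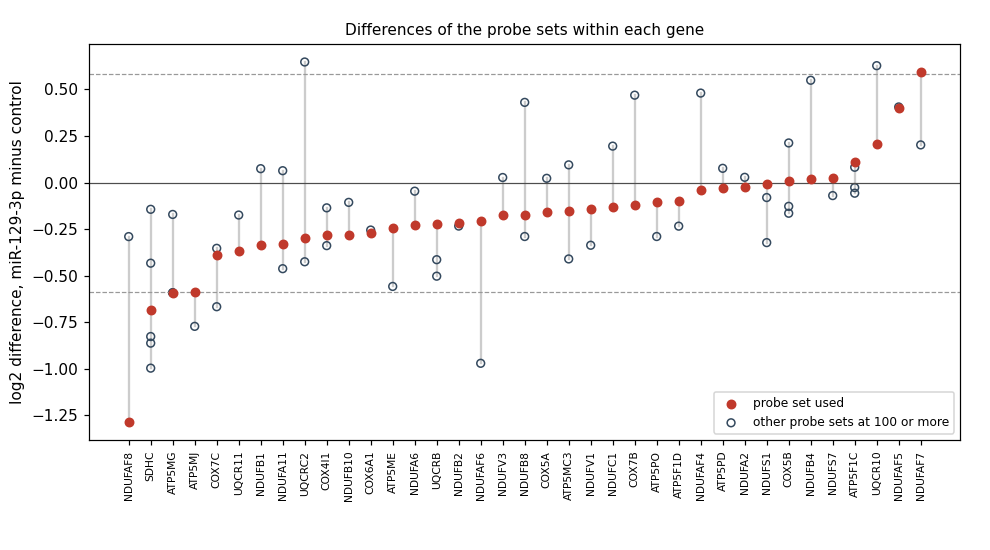
The log2 difference, miR-129-3p minus control (vertical axis), of each measured probe set in the 37 genes that have 2 or more, with the probe set used in red and the others as open circles; dashed lines mark 1.5-fold. SDHC and ATP5MJ are lower on every probe set, NDUFAF8 has one far lower and one near -0.29, and UQCRC2 has one on the opposite side past 1.5-fold.

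Promoters were read because the genes share known regulators. RefSeq promoters (GRCh38.p14, 250 bases before to 50 after the start) were at hand for 72 of the 84 genes. The letters GCGCATGC of the NRF1 motif, or their reverse complement GCATGCGC, stood in 14 of the 72 (19.4%), against 3.74% of 22199 promoters of protein-coding genes. The ETS motif that GABP binds (CCGGAAGT or ACTTCCGG) stood in 9 (12.5%, against 5.34%), and the YY1 motif (AAGATGGC or GCCATCTT) in 10 (13.9%, against 3.53%). The 14 measured genes with the NRF1 letters had a median log2 difference of -0.02 and the 55 without one of -0.20. With and without the ETS letters the medians were -0.08 and -0.19, and with and without the YY1 letters -0.16 and -0.18. These splits are descriptions with no test, and a match is not a bound site.

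3 promoters are shown, with matches to the motifs in capitals: NDUFA9, the highest gene, with YY1 letters after the start (chr12:4648864-4649163, plus strand); NDUFS7, a core subunit at 0.03, with NRF1 letters before the start and YY1 letters after it (chr19:1383657-1383956, plus strand); and ATP5MC1, the lowest gene of ATP synthase, with none of the 3 motifs (chr17:48892537-48892836, plus strand).
NDUFA9: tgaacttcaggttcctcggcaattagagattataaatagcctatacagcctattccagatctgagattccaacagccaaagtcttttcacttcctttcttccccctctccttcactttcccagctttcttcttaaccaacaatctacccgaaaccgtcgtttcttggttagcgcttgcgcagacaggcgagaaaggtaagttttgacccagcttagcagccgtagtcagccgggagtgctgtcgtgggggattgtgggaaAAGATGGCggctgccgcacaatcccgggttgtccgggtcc
NDUFS7: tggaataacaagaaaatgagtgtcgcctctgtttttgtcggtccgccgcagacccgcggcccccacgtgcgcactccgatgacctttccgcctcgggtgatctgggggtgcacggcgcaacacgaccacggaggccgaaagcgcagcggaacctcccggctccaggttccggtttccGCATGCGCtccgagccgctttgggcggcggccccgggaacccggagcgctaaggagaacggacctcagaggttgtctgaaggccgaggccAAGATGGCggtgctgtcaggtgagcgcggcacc
ATP5MC1: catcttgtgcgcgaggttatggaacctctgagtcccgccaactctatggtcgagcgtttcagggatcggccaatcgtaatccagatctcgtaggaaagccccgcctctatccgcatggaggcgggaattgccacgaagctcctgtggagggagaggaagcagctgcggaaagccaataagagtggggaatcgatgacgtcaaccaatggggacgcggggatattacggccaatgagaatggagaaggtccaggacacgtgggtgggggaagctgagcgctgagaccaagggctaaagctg

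Of the regulators with a motif above, NRF1 read 244 with miR-129-3p and 285 in control (-0.21). GABPA, the DNA-binding part of GABP, read 682 and 876 (-0.35), and YY1 3406 and 3795 (-0.16). ESRRA, an estrogen-related receptor that acts on these genes, read 663 and 861 (-0.37), and the coactivator PPARGC1A stayed below 100 on both arrays. These regulators were named after their values were seen. In the whole list of regulators of mitochondrial biogenesis, 11 genes were measured, with 6 below 0, 5 above and a median of -0.16. At least 1.5-fold higher were 2 (18.2%) and lower 0, against 17.3% and 10.8% of all measured genes. Genes that express and keep mitochondrial DNA lay on both sides of 0. TFB1M, a methyltransferase of mitochondrial ribosomal RNA, read 1158 and 622 (0.88), and TFAM, which packages mitochondrial DNA and starts its transcription, 977 and 638 (0.60). Of the 6 genes of mitochondrial DNA upkeep, 2 were at least 1.5-fold higher and 0 lower, where 17.3% and 10.8% of all measured genes passed. They were MGME1, a nuclease, at 0.96 (1386 and 707) and POLG2, the accessory subunit of the DNA polymerase, at 0.94 (815 and 417), while the catalytic subunit POLG (551 and 642, -0.21) and the single-stranded DNA-binding protein SSBP1 (2777 and 3418, -0.30) were below 0.

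Assembly factors outside the symbol rule held differences in both directions. In the list for complexes II and III, UQCC1, needed to make cytochrome b, read 1115 with miR-129-3p and 461 in control (1.25), SDHAF1, which helps to insert iron-sulfur clusters into complex II, 446 and 289 (0.60), and LYRM7, a chaperone of the complex III iron-sulfur protein, 288 and 525 (-0.83). In the complex IV list, 2 of 24 measured genes were at least 1.5-fold higher and 2 lower (8.33% each). Of all measured genes, 17.3% were higher and 10.8% lower. Those in the list were SCO2, a copper carrier and known p53 target (1102 and 475, 1.19), COA6 (2217 and 1472, 0.59), CMC2 (878 and 1996, -1.17) and PET100 (894 and 1825, -1.02). Factors of the same complex thus lay at both ends, each in a smaller share than over all measured genes.

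All 5 genes for assembly and inhibition of ATP synthase were above 0 in the deposited values, the lowest at 0.02. Their median was 0.25, and none was past 1.5-fold. Both cytochrome c (CYCS, 3370.5 and 4447, -0.40) and cytochrome c1 (CYC1, 1497 and 1637, -0.13) were below 0. The other complex I assembly factors had a median of -0.10, with ECSIT at 0.64 (355 and 221). In the tricarboxylic acid cycle, which feeds the chain, 1 of 10 measured genes was past 1.5-fold: CS, citrate synthase, at 1623 with miR-129-3p and 2516 in control (-0.63). In coenzyme Q synthesis COQ3, a methyltransferase, stood at -0.80 (216 and 386), and the list had a median of 0.16. Over the 9 lists, 85 genes were measured, with a median of 0.02, and 40 were below 0 (47.1%, the same share as of all measured genes). At least 1.5-fold higher were 9 (10.6%) and lower 5 (5.88%), smaller shares than the 17.3% and 10.8% of all measured genes.

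**Figure D5:**
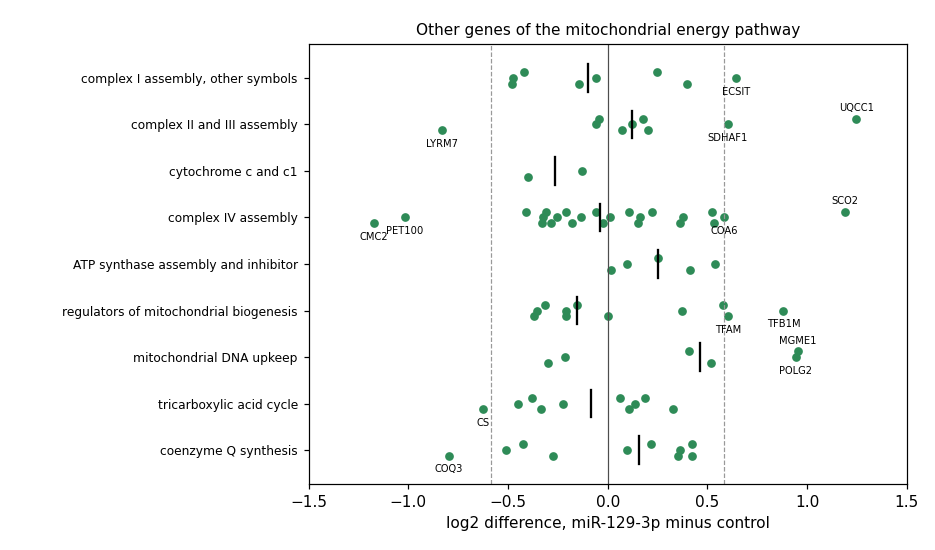
The log2 difference, miR-129-3p minus control (horizontal axis), of each measured gene (points) in 9 lists of genes that serve the respiratory chain, with list medians as black bars and dashed lines at 1.5-fold; genes past 1.5-fold are named. UQCC1 and SCO2 are the highest and CMC2 the lowest, and the mitochondrial DNA upkeep list has the highest median, 0.46.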

How the data were processed

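Per the labels, biotin-labelled cRNA from total RNA of 1 culture per group was hybridised to Affymetrix arrays. The deposited table holds 1 linear intensity per probe set and array; MAS5 and RMA appear in the submitters' processing notes with no word on which of them made it, and the version, background correction and scaling are not given in the sources used here. Any scaling of the arrays to each other would remove a shift common to all genes, and compression of dim signals would shrink their differences.

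Of 54613 probe sets, 41091 had 1 gene symbol in a platform annotation table, 1801 had several and 11721 were unnamed here. Differences were taken on log2(signal + 16), and a gene was measured at 100 or more on either array. The code was tested on simulated arrays. The members, lists and limits were chosen with earlier results of these data known. Named were the genes past 1.5-fold, the 2 highest and 2 lowest per complex, listed core subunits and isoforms, genes with a probe set 1.5-fold the other way, and other genes of the complexes where they complete a description. From the other lists, up to 2 genes at each end past 1.5-fold were named, with the regulators NRF1, GABPA, YY1, ESRRA and PPARGC1A, the cytochromes, POLG and SSBP1 added after their values were seen. The alternatives changed scaling, filter, added constant, probe sets and fold limit. Tools were pandas 2.3.3 and numpy 2.4.6 in Python 3.11.15, with statsmodels 0.14.6 for the loess trend and matplotlib 3.10.9 for plots.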

Additional observations from a re-analysis of the deposited data

Results flagged for a closer look

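Probe sets annotated to several genes were outside the set, and 14 of 15 with a symbol that begins like those of the set, some of them of readthrough, noncoding or other genes, were measured. On the miR-129-3p array 2 of these 14 read at least 1.5-fold above control, where 16.7% of all measured probe sets with 1 gene symbol did. Both are annotated to KCTD14 and to the NDUFC2-KCTD14 readthrough gene. One read 310.2 with miR-129-3p and 109.5 in control (1.38) and the other 489 and 150.3 (1.60). The probe set annotated to NDUFC2, a complex I subunit, and the same readthrough gene with the stronger signal read 4187 and 4526 (-0.11).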

How the results depend on the processing

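The median of the 80 genes stayed between -0.22 and -0.14 over 12 alternatives, and all 12 kept its sign. Over 11 alternatives each, the medians ran from -0.21 to -0.05 for complex I, -0.26 to -0.01 for its assembly factors, -0.29 to -0.08 for complex III, -0.27 to -0.22 for complex IV and -0.22 to -0.14 for ATP synthase, with no change of sign. That of complex II, with 3 genes, ran from -0.11 to 0.02 and was below 0 in 3 of 11. The share of all measured genes below 0 ran from 43.9% to 52.8%. The 6 genes at least 1.5-fold lower became 3 when the probe sets of each gene were averaged and 3 of 60 measured genes without _x_at and _s_at probe sets, where fewer genes were measured. In those settings, in that order, 9.05% and 11.2% of all measured genes were at least 1.5-fold lower. At a limit of 2-fold, 0 were higher and 2 lower, where 7.83% and 4.56% of all measured genes passed. The filter of 1000 and the count with noncoding symbols were added after the data were seen. No paired analysis was possible because each group holds 1 array. With 1 array a group no replicate could be left out. The 4 genes below 100 on both arrays have no usable difference, and genes read by 1 probe set, among them ATP5MC1, NDUFA9, NDUFA10 and SDHA, have no second reading at 100 or more under a single gene name.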
